A study of Mus musculus with 2 samples.

Results

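The 37 miRNA genes described here are long-known mouse miRNAs reputed to lie within protein-coding host genes and outside the large miRNA families. They were taken by name from a fixed list and matched to the 2202 miRNA genes of the deposited tables through their Ensembl identifiers in GENCODE M21, and all 37 were present. Small RNA had been sequenced from C2C12 cells, a mouse myoblast line started from crush-injured thigh muscle of C3H mice, after 72 h of differentiation into myotubes. The series held 1 group of 2 libraries, labelled as biological replicates 1 and 2, with separate biosamples and no treatment, genotype change or undifferentiated control. The 2 cultures came from 1 cell line and 1 donor strain, and the labels give no sex for the cells. In such bulk RNA, fewer cells of a type and less RNA per cell cannot be told apart. No condition could be contrasted, and values were compared between genes and between the libraries.

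An intronic miRNA is transcribed as part of its host's pre-mRNA, or from a promoter of its own inside the host. Drosha and its partner Dgcr8 cut the hairpin out of the intron, Dicer trims it to a duplex, and an Argonaute protein keeps a single arm, whose seed near the 5′ end pairs with target mRNAs. A miRNA on the host's strand can share the host's transcription, whereas one on the opposite strand cannot. Host mRNA was not measured here.

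Replicate 1 held 7581366 reads and replicate 2 held 9865298 reads on the genes' own strand, out of 15349205 and 18450359 reads in all. Counts-per-million (CPM) are relative to those gene reads. Detection of a gene required at least 2 CPM in each library. A count of 3 reads was worth 0.396 CPM in the first library and 0.304 CPM in the second. It is about the upper one-sided 95% limit on the expected count when 0 reads are seen. Such limits cover counting error only. Reads that mapped to several places, 22.0% and 17.9% of all reads, stood outside the genes. The labelled cell type showed in the muscle markers, of which 6 of 9 were detected, against 274 of all 2202 miRNA genes (12.4%). The markers took 35.5% and 42.8% of gene reads, nearly all from Mir206 at 340841 and 416794 CPM. Not detected were Mir1a-2, Mir133a-1 and Mir133a-2. Their hairpins each have a stretch of at least 20 bases in common with another muscle marker. So do those of the detected Mir133b (13610 and 10568 CPM) and Mir1a-1 (3.03 and 2.84 CPM). Any reads that mapped to both hairpins were left out of the counts, and their part in these levels was not tested. Detected markers of other cell types numbered 2 of 5 for blood, 1 of 2 for endothelium, 2 of 9 for neurons, 1 of 6 for epithelium and 0 of 4 for liver and pancreas. All but the liver and pancreas list stood above the 12.4%, so these counts alone do not tell cell types apart. None of those 5 lists took more than 0.0219% of the reads in either library. By mean CPM the highest of those markers were Mir142 of the blood list (89.0 and 178 CPM) and Mir126a of endothelium (217 and 42.9 CPM). Mir132 of the neuronal list followed at 127 and 98.3 CPM. Both Mir200a and Mir429 of the epithelial list had no read. The same held for the Mir124a genes, Mir9-1 and Mir9-2 of the neuronal list, and for Mir216a and Mir217 of the pancreas.

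The mature arms shown here are those of the most abundant genes and of the pairs that share a locus, an arm or a seed. RefSeq (GRCm38.p6) listed 35 of the 37 genes, all but Mir151 and Mir328, and of Mir140 the 3p arm was listed. The tables count reads per hairpin, so the arms of a gene were not told apart. Each arm reads 5′ to 3′ with the seed, bases 2 to 8, in capitals. The first set belongs to the genes that averaged above 1000 CPM, Mir151 apart.
miR-140-3p: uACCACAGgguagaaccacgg
miR-149-5p: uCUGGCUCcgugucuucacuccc
miR-149-3p: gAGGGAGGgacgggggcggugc
miR-335-5p: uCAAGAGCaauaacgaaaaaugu
miR-335-3p: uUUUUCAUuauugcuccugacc
miR-191-5p: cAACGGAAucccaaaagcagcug
miR-191-3p: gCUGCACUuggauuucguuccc
miR-425-5p: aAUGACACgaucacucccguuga
miR-425-3p: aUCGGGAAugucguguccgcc
miR-744-5p: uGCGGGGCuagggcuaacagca
miR-744-3p: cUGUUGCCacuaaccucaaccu
miR-671-5p: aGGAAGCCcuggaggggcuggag
miR-671-3p: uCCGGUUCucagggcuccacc

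The second set belongs to pairs of genes with a shared arm or seed. Mir128-1 and Mir128-2 carry the same 3p arm and differ in the 5p arm, and Mir218-1 and Mir218-2 carry the same 5p arm and differ in the 3p arm. The 5p arms of Mir204 and Mir211 differ by the single substitution A17U (the Mir204 base first, positions counted from the 5′ end). The 3p arm of Mir326 and the 5p arm of Mir330 share a seed and differ further along.
miR-128-3p: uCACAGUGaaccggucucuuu
miR-128-1-5p: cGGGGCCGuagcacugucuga
miR-128-2-5p: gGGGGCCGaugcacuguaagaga
miR-218-5p: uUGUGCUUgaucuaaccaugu
miR-218-1-3p: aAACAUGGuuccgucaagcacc
miR-218-2-3p: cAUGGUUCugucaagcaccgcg
miR-204-5p: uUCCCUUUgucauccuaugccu
miR-211-5p: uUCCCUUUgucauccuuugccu
miR-326-3p: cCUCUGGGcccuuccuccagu
miR-330-5p: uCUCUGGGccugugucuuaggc

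The annotation placed 32 of the 37 genes in a sense intron, that is, on the host's strand and outside the exons of its protein-coding transcripts, in 32 different hosts. The other 5 did not meet that description. Mir191 (chr9:108568319-108568392, plus strand) and Mir425 (chr9:108568777-108568861, plus strand) lay in the long non-coding gene 4833445I07Rik. The start of Dalrd3, the tRNA methylation gene usually given as their host, was annotated 1494 bases downstream of Mir191 and 1025 bases downstream of Mir425 on the same strand. Mir671 (chr5:24592114-24592211, plus strand) lay wholly within a coding exon of Chpf2, an enzyme of chondroitin synthesis. Mir324 (chr11:70012043-70012131, plus strand) lay antisense to an intron of Acadvl, the very long chain acyl-CoA dehydrogenase gene. On its own strand it lay wholly within an untranslated exon of Dvl2, a Wnt pathway adaptor. Mir328 (chr8:105308364-105308460, minus strand) lay antisense to Elmo3, a gene of engulfment and cell motility, with 12 of its bases over a coding exon. Mir140 and Mir330 were intronic in the protein-coding transcripts of Wwp2 and Eml2 and overlapped an exon of a non-coding isoform of the same host.

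Of the 37 genes, 29 were detected, against 274 of all 2202 annotated miRNA genes (12.4%). Together the 37 genes took 4.16% of gene reads in replicate 1 (95% exact Clopper-Pearson interval 4.15% to 4.17%). In replicate 2 they took 3.34% (3.33% to 3.35%), and the mean was 3.75% ± 0.580 (SD, n = 2). These exact intervals, like those below, cover counting error only and not the spread between cultures. Mir140, Mir149 and Mir335 made up 62.5% of the combined share in replicate 1 and 55.4% in replicate 2. The median gene of the list stood at 262 CPM in replicate 1 and 218 CPM in replicate 2, and the median of all miRNA genes was 0 CPM in both. The genes were listed as known miRNAs, so these counts describe the list and single nothing out. Among the 32 in sense introns 24 were detected, against 99 of the 737 other sense-intronic miRNA genes (13.4%). All 5 genes outside sense introns were detected.

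**Figure D1:**
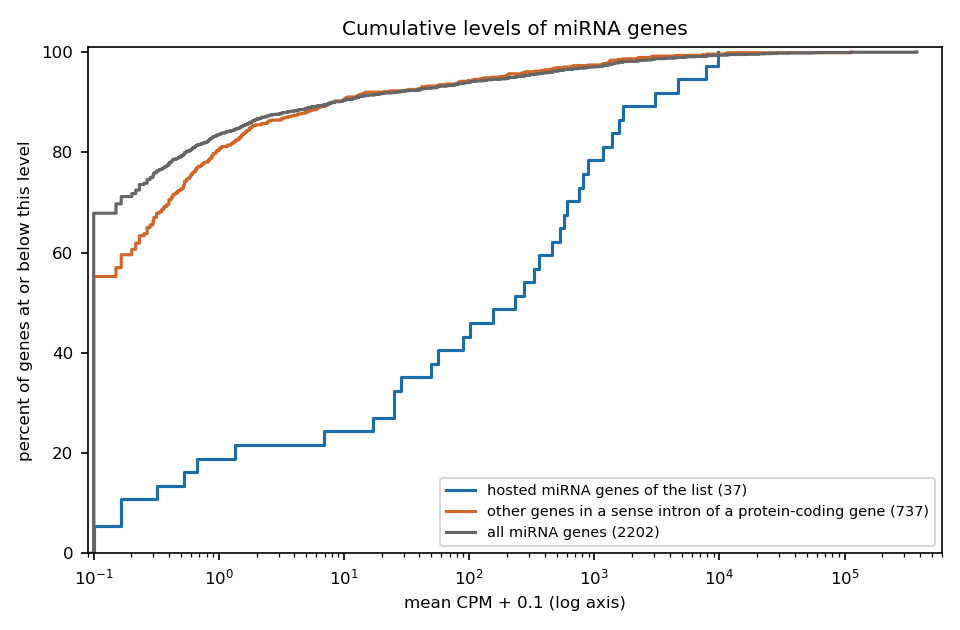
Percent of genes (vertical axis) at or below a mean CPM + 0.1 (horizontal log axis) for the 37 hosted miRNA genes, the 737 other miRNA genes in sense introns of protein-coding genes, and all 2202 miRNA genes. The curve of the 37 genes starts low, since 2 of them had no read, and ends at the mean of 9746 CPM of Mir140, below the highest genes of the other curves.

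The 2 hosts that are ubiquitin ligases, proteins that mark others for degradation, carried the highest miRNA of the list and one near 0, together 0.975% ± 0.199 of gene reads (SD, n = 2). Mir140, in intron 16 of 23 of the HECT ubiquitin ligase gene Wwp2 (chr8:107551244-107551313, plus strand), had 84554 and 82262 reads in replicates 1 and 2. That was 11153 and 8339 CPM, or 9746 ± 1990.05 CPM (SD, n = 2), and it ranked 15th and 16th of all miRNA genes. Mir140 is best known from cartilage, where Wwp2 is also prominent. Mir340, in intron 2 of 8 of the RING ubiquitin ligase gene Rnf130 (chr11:50069702-50069799, plus strand), stood at the other end, with 1 read in replicate 1 and 0 in replicate 2. Each of its arms was found in 1 annotated hairpin only. Copies outside annotated hairpins were not examined.

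Hosts of the matrix and cell surface gave a wide range, with 4 of 6 genes detected and 0.850% ± 0.00693 of gene reads (SD, n = 2). Mir149, in the first intron of the glypican gene Gpc1 (chr1:92850378-92850443, plus strand), had 58682 and 78869 reads. Its levels of 7740 and 7995 CPM were nearly even, at 7867 ± 180 CPM (SD, n = 2). Mir708, in the first intron of the teneurin gene Tenm4 (chr7:96249424-96249532, plus strand), had 5596 and 3972 reads, or 738 and 403 CPM, and was higher in replicate 1. Its hairpin has a stretch of at least 20 bases in common with the predicted miRNA gene Gm23134, which had 0 and 7 reads. The 5p arm of Mir708 has the seed of Mir28a, which stood higher, at 2904 and 1553 CPM. Mir455, in intron 10 of 60 of the fibrillar collagen gene Col27a1 and 127 bases before the next exon, had 448 and 386 reads (59.1 and 39.1 CPM).

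The same group held 3 scarce genes. Mir676, in intron 2 of 7 of the ectodysplasin gene Eda, had 9 and 13 reads and fell below 2 CPM. Mir218-1 and Mir218-2 lie at the same place, intron 14 of 35, of the paralogous guidance genes Slit2 and Slit3, whose secreted products bind Robo receptors. Mir218-1 had 38 and 84 reads (5.01 and 8.51 CPM), and Mir218-2 had 5 and 2 reads. The read ratio was 7.60 (95% exact interval of counting error 2.99 to 24.7) in replicate 1 and 42.0 (11.3 to 352) in replicate 2, so the Slit2 copy was higher in both libraries. Their common 5p arm occurs in 2 hairpins. The counts leave out reads that mapped to both, so they do not measure mature miR-218-5p.

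Both miRNAs of metabolic hosts were detected, at 0.479% ± 0.342 of gene reads (SD, n = 2). Mir335, in intron 2 of 11 of the imprinted gene Mest (chr6:30741299-30741396, plus strand), had 53942 and 21280 reads. That was 7115 CPM in replicate 1 and 2157 CPM in replicate 2, and 4636 ± 3506 CPM (SD, n = 2) overall. Mir33, in intron 16 of 18 of Srebf2, the transcription factor gene of sterol synthesis (chr15:82198122-82198190, plus strand), went the other way, with 684 and 2149 reads. Its levels were 90.2 CPM in replicate 1 and 218 CPM in replicate 2. Mir33 is known as a repressor of cholesterol export through Abca1.

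Among the hosts of the cytoskeleton and adhesion all 4 genes were detected, at 0.191% ± 0.0366 of gene reads (SD, n = 2). Mir151, in intron 22 of 31 of Ptk2, the focal adhesion kinase gene (chr15:73254815-73254882, minus strand), had 13681 and 13051 reads. Its 1805 and 1323 CPM gave 1564 ± 341 CPM (SD, n = 2). Mir342, in intron 3 of 13 of the Ena/VASP gene Evl (chr12:108658620-108658718, plus strand), had 1986 and 1970 reads (262 and 199.7 CPM). Mir330, in the first intron of the microtubule-associated protein gene Eml2, was lower, with 608 and 967 reads (80.2 and 98.0 CPM). Mir491, in intron 2 of 43 of the focadhesin gene Focad, was the lowest of the 4, with 183 and 322 reads (24.1 and 32.6 CPM).

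Among the signalling hosts 3 of 4 genes were detected, at 0.187% ± 0.0387 of gene reads (SD, n = 2). Mir744, in intron 3 of 10 of Map2k4, a kinase gene upstream of JNK (chr11:65734733-65734832, minus strand), had 8378 and 16556 reads. Its 1105 and 1678 CPM gave 1392 ± 405 CPM (SD, n = 2), higher in replicate 2. Mir139, in intron 2 of 31 of the phosphodiesterase gene Pde2a (chr7:101475376-101475443, plus strand), had 3569 and 4402 reads. It was almost level between the libraries, at 471 and 446 CPM. Mir326, in the first intron of the beta-arrestin gene Arrb1, had 135 and 160 reads (17.8 and 16.2 CPM). It carries the seed shown above with Mir330, which had 4.50 times as many reads in replicate 1 and 6.04 times as many in replicate 2. Mir338, in intron 7 of 13 of the tyrosine kinase gene Aatk and known from oligodendrocytes, had 1 and 0 reads.

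Hosts of RNA binding and processing held 5 detected genes out of 5, at 0.107% ± 0.00426 of gene reads (SD, n = 2). Mir186, in intron 8 of 9 of the splicing-related gene Zranb2 (chr3:157544279-157544349, plus strand), had 3332 and 6152 reads (439 and 624 CPM) and was higher in replicate 2. Mir101b, in the last intron of the ribosomal RNA processing gene Rcl1 (chr19:29135279-29135375, plus strand), had 3238 and 2889 reads (427 and 293 CPM) and was higher in replicate 1. Its hairpin has a stretch of at least 20 bases in common with Mir101a, which had 72.9 and 134 CPM. The reads of Mir101b exceeded those of Mir101a by 5.86-fold in replicate 1 and 2.19-fold in replicate 2, with any reads that mapped to both left out. Mir7-1, in the last intron of the RNA-binding protein gene Hnrnpk, had 224 and 203 reads (29.5 and 20.6 CPM). The 5p arm of Mir7-1 is also held by Mir7-2, which had 18 and 25 reads, so its level leaves out reads that mapped to both.

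The Mir128 pair gave nearly the same ratio in both libraries. Mir128-1, in intron 19 of 26 of the R3H domain gene R3hdm1 (chr1:128202361-128202430, plus strand), had 732 and 1048 reads (96.6 and 106 CPM). Mir128-2, in intron 19 of 20 of the cAMP-regulated phosphoprotein gene Arpp21 (chr9:112118636-112118711, minus strand), had 392 and 606 reads (51.7 and 61.4 CPM). The read ratio of the R3hdm1 copy to the Arpp21 copy was 1.87 (95% exact interval 1.65 to 2.12) in replicate 1 and 1.73 (1.56 to 1.91) in replicate 2. Reads of their common 3p arm could map to both hairpins and are then left out. Neither count measures mature miR-128-3p.

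Hosts of membrane proteins and trafficking held 4 detected genes, and all 4 were higher in replicate 1, as were 154 of all 274 detected genes. Their share was 0.219% ± 0.0932 (SD, n = 2). Mir652, in intron 2 of 6 of the transmembrane protein gene Tmem164 (chrX:142739000-142739097, plus strand), had 7657 and 6097 reads, or 1009.98 and 618 CPM. Mir872, in intron 13 of 19 of Ift74, a gene of transport in cilia (chr4:94665157-94665237, plus strand), had 7706 and 4757 reads, or 1016 and 482 CPM. Mir361, in intron 9 of 14 of the Rab escort protein gene Chm (chrX:113074824-113074893, minus strand), had 5946 and 4227 reads, or 784 and 428 CPM. Mir32, in intron 14 of 17 of Tmem245 (chr4:56895229-56895298, minus strand), had 327 and 67 reads, or 43.1 and 6.79 CPM. The 5p arm of Mir32 has the seed of 6 other genes. Mir25 (286 and 260 CPM) and Mir92-1 (382 and 369 CPM) stood above Mir32 in both libraries. Mir92-2 (6.20 and 3.95 CPM) and Mir92b (5.01 and 4.46 CPM) stood below it, and Mir363 and Mir367 had no read. The hairpins of Mir92-1 and Mir92-2 have a stretch of at least 20 bases in common. Their levels leave out any reads that mapped to both, so they do not rank the mature miRNAs. Mir339, in intron 2 of 4 of the uncharacterised gene 3110082I17Rik (chr5:139369650-139369745, minus strand), had 2898 and 2784 reads (382 and 282 CPM).

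Hosts for channels and neural receptors were the group without a detected gene. Mir204, in intron 6 of 25 of the cation channel gene Trpm3, had 1 and 10 reads. Mir211, in intron 6 of 26 of Trpm1, a channel gene of melanocytes and retina, had 1 and 3 reads. Their ratio of 3.33 in replicate 2 had a counting interval of 0.858 to 18.8, so the order of the pair was not resolved at this depth. Mir346, in intron 2 of 15 of the glutamate receptor gene Grid1, had 0 reads in both libraries. Mir448, in intron 5 of 6 of the serotonin receptor gene Htr2c, had 0 reads too. The 6 other miRNA genes on the same strand within Htr2c together had 0 reads in replicate 1 and 1 in replicate 2, from Mir1298.

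The 5 genes outside sense introns ranged from 274 to 3039 CPM in their means. Mir191 had 22507 and 30680 reads (2969 and 3110 CPM), and its neighbour Mir425 had 12059 and 17527 reads (1591 and 1777 CPM). Mir191 exceeded Mir425 by 1.87-fold (95% exact interval 1.83 to 1.91) in replicate 1 and 1.75-fold (1.72 to 1.78) in replicate 2. On the log2 scale with 0.5 reads added, the difference was 0.85 ± 0.07 (SD, n = 2). With 2 libraries the smallest two-sided p of an exact permutation of the pairs is 0.5, and the ratio was not tested. The predicted miRNA gene Gm24083 overlaps Mir191 on the other strand, and in the count that ignores strand Mir191 was listed at 0. The exonic Mir671 had 6359 and 15080 reads (839 and 1529 CPM) and was 1.82-fold higher in replicate 2. Mir324 had 7445 and 8002 reads (982 and 811 CPM). The antisense Mir328 had 2017 and 2779 reads (266 and 282 CPM).

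**Figure D2:**
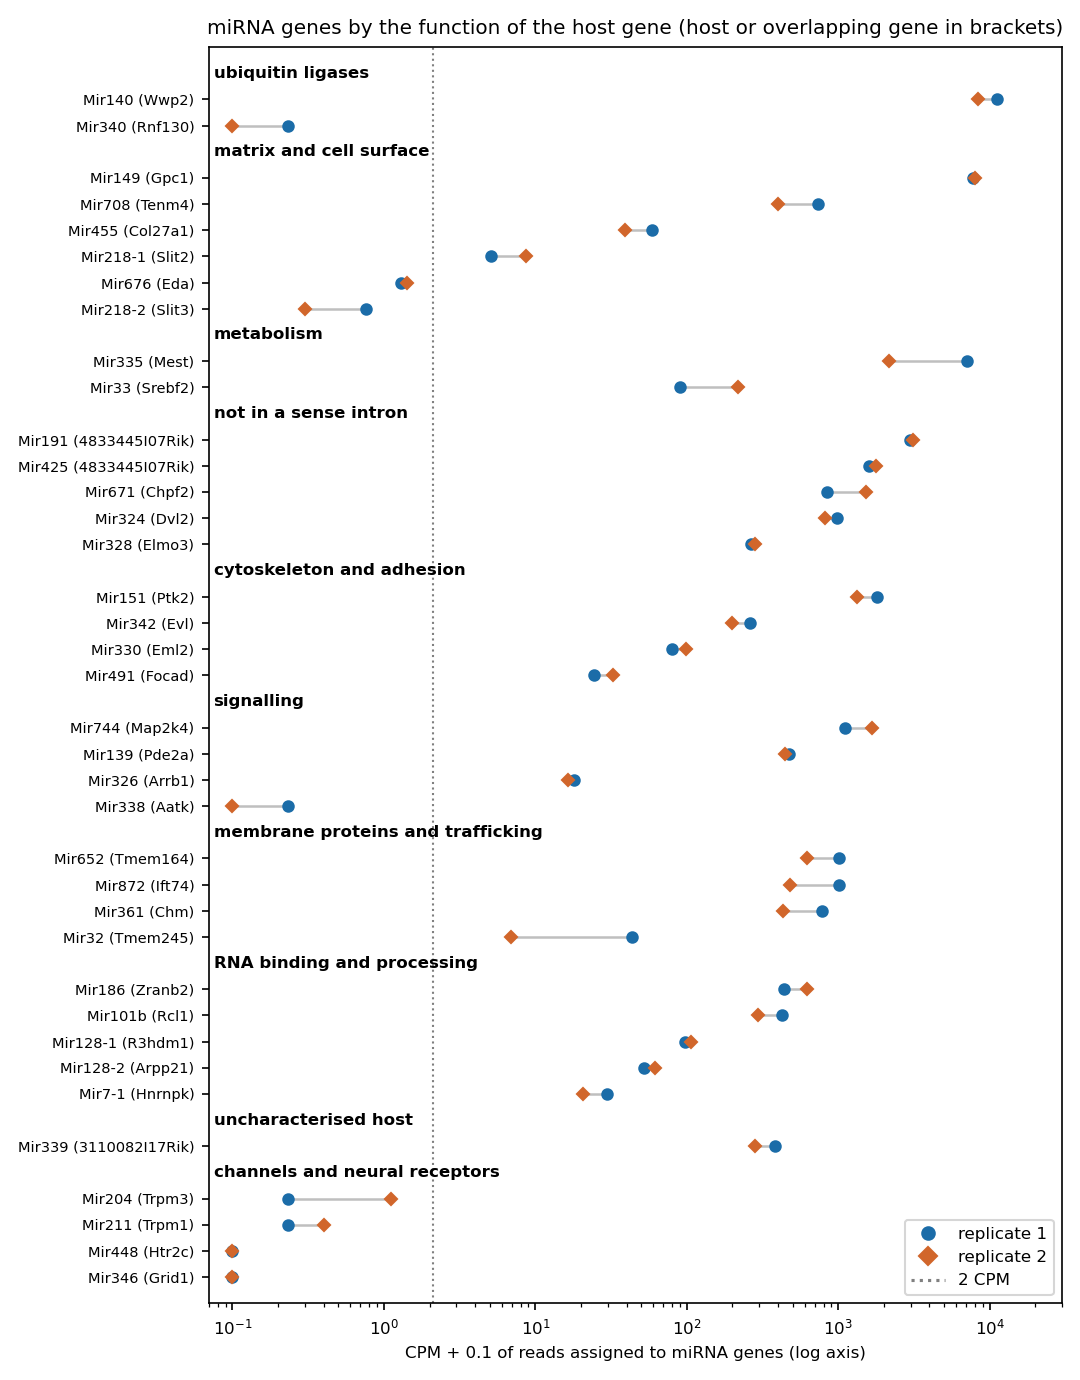
CPM + 0.1 of each of the 37 genes (horizontal log axis) in replicate 1 (circles) and replicate 2 (diamonds), grouped by the function of the host, with a dotted line at 2 CPM. Mir140 and Mir149 sit at the right, the 4 genes of channel and receptor hosts lie left of the line, and Mir335, Mir33 and Mir32 have widely spaced points.

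The order of levels was resolved only in part. Of the 20 steps between neighbours among the 21 genes that averaged at least 100 CPM, 6 separated the lower value of one gene from the higher value of the next. Mir140 stood above Mir149, Mir149 above Mir335, and Mir191 above Mir425. Mir335 and Mir191 were not separated, because Mir335 in replicate 2 lay below both values of Mir191. From Mir425 down through Mir151, Mir744, Mir671, Mir324, Mir652, Mir872, Mir361, Mir708 and Mir186 to Mir139, no neighbours were separated. The remaining separated steps lay between Mir139 and Mir101b, between Mir339 and Mir328, and between Mir328 and Mir342.

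The libraries were then compared gene by gene. Of all 274 detected miRNA genes, 17.5% were 2-fold or more higher in replicate 1 and 4.74% were 2-fold or more higher in replicate 2. Of the 29 detected genes of the list, 3 were 2-fold higher in replicate 1 and 1 in replicate 2. Mir32 was 6.35-fold higher in replicate 1, Mir335 was 3.30-fold higher and Mir872 was 2.11-fold higher. Mir33 was 2.41-fold higher in replicate 2. The 4 lay in introns of Tmem245, Mest, Ift74 and Srebf2, from different chromosomes or, for Mir32 and Mir872, distant places on chromosome 4. The median log2 difference (replicate 2 minus replicate 1) was -0.13 over the 29 genes and -0.13 over all detected genes, and the median size of the difference was 0.45 and 0.52.

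An exact two-sided binomial test with TMM effective library sizes asked which differences exceeded counting error. With Benjamini-Hochberg adjustment over all 415 genes tested, 55.7% of them differed, 30.4% being higher in replicate 1 and 25.3% higher in replicate 2. Of 31 tested genes of the list 27 differed, 14 higher in replicate 1 and 13 in replicate 2. Smaller differences pass at higher counts, and among genes with at least 100 reads the shares lay closer, at 85.4% of all 240 genes and 27 of 29 genes of the list. The adjusted p was 1.09e-56 for Mir32 and 5.05e-106 for Mir33 in this exact test, and those of Mir335 and Mir872 were below the range of the software. The 4 genes that did not pass were Mir139 (adjusted p = 0.231), Mir326 (0.657), Mir676 (0.898) and Mir204 (0.0512) in the same exact test. This test sets the 2 libraries against each other, not conditions. Mir149 passed it at a fold of 1.03 and Mir191 at 1.05.

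**Figure D3:**
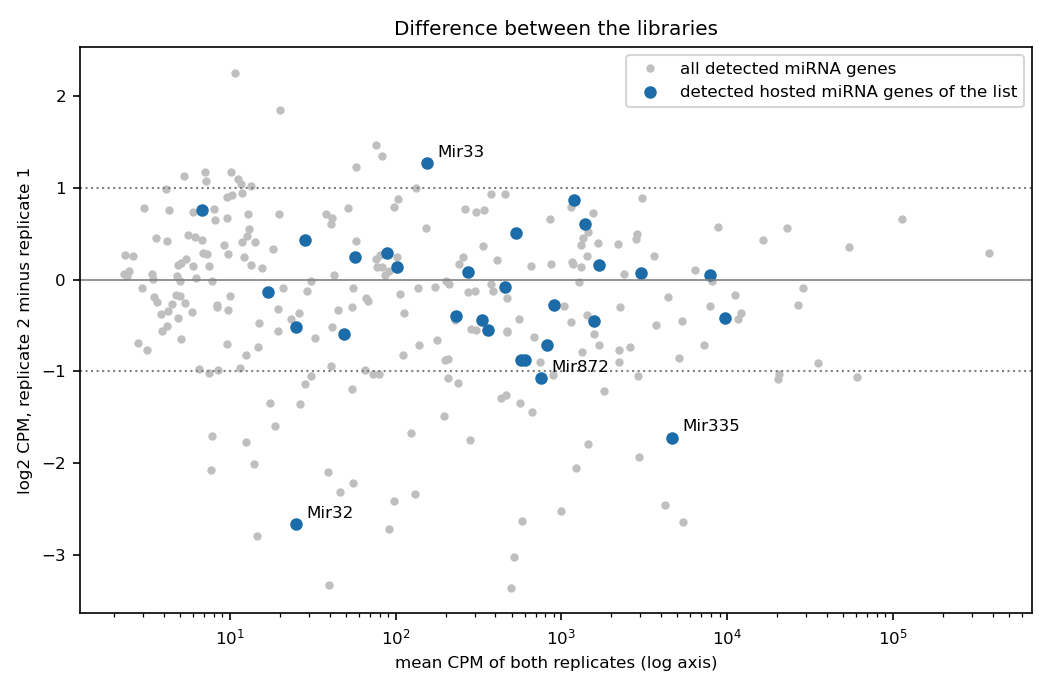
Difference in log2 CPM, replicate 2 minus replicate 1 (vertical axis), against mean CPM (horizontal log axis) for all 274 detected miRNA genes (grey) and the 29 detected genes of the list (blue), with dotted lines at 2-fold. Mir32, Mir335 and Mir872 lie below the lower line and Mir33 above the upper one.

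Base composition of the hairpins moved weakly with the difference between the libraries. Spearman's rho between hairpin GC and the log2 difference was 0.29 over the 29 detected genes of the list and 0.29 over all 274 detected genes. These are correlations across genes of the same 2 libraries, which are not independent replicates. Hairpins of the 16 listed genes higher in replicate 1 had a median GC of 51.0%, and those of the 13 higher in replicate 2 had 54.1%. Mir32 at 38.6%, Mir872 at 39.5% and Mir335 at 42.9% GC were below the median of 52.9% over the 29 genes, but so was Mir33 at 47.8%. The part of base composition in these differences was not tested.

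The host introns of the 32 sense-intronic genes ranged from 485 bases for Mir330 to 143365 bases for Mir708, with a median of 14332 bases. Hairpins lay a median of 1761 bases from the nearest exon of the host's principal or longest protein-coding transcript, and none closer than 127 bases. In 4 hosts the miRNA was in the first intron and in 2 in the last. Intron length and mean CPM were nearly unrelated across the 32 genes (Spearman's rho of -0.12, a description across genes). Below 5000 bases, 2 of 11 genes were not detected, and from 5000 bases up 6 of 21 were not. The median of the mean CPM went the other way, at 49.1 below 5000 bases and 231 from 5000 bases up.

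**Figure D4:**
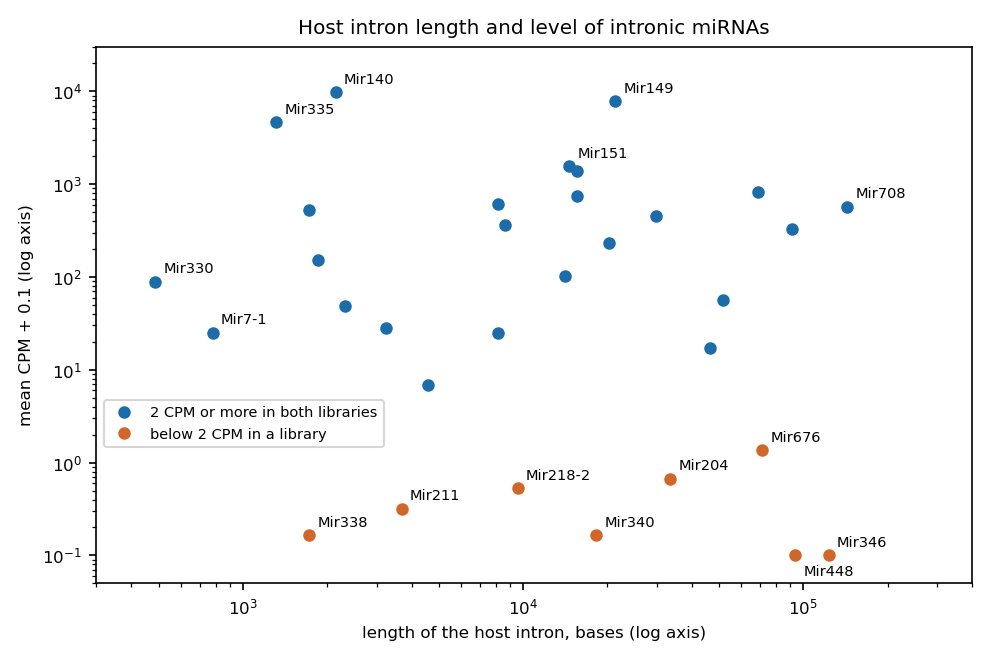
Mean CPM + 0.1 (vertical log axis) against the length of the host intron in bases (horizontal log axis) for the 32 sense-intronic genes, coloured by detection. Abundant genes occur in short introns (Mir140, Mir335) and long ones (Mir149, Mir708), and the 8 genes below 2 CPM in a library span 1724 to 123044 bases.

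A set of 29 other miRNAs commonly described as intronic gave a point of comparison. Of these 26 were detected, against 274 of all 2202 miRNA genes (12.4%), and the count describes a set of known miRNAs. Together the 29 took 14.7% ± 3.08 of gene reads (SD, n = 2). Several of the set have a stretch of at least 20 bases in common with another hairpin. They range from the abundant Mir378a and Mir23b to the undetected Mir26a-1 and Mir103-1. Any reads that mapped to both hairpins were left out, so the count and the share can be too low. The 4 highest were Mir378a in Ppargc1b, Mir23b and Mir27b in 2010111I01Rik, and Mir214. Mir214 and Mir199a-2 were annotated on the strand of the long non-coding gene Dnm3os. Mir9-1 lay in the long non-coding gene Gm3764, and Mir26a-2 in an exon of Ctdsp2. None of these lay in a sense intron of a protein-coding gene. Mir378a alone stood at 112998 ± 36038 CPM (SD, n = 2), above all 37 genes of the list in both libraries. Mir140 stood below Mir23b, which had 13280 and 9884 CPM, in both libraries.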

How the data were processed

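MicroRNA libraries from 2 cultures of C2C12 myotubes, differentiated for 72 h, formed 1 group. The authors deposited raw read counts per miRNA gene, made against mm10 and annotation M21, per the text they deposited beside each table. For the aligner, the counter and read filters, the sources used here give nothing. The 3 count columns were identified from their values: the first ignores strand, the second counts the strand of the gene and the third the other strand. The own-strand column was used. The 4 lines that summarise reads outside genes entered no total (unmapped reads were 22.7% and 23.1%, no-feature reads 5.88% and 5.57% of all reads).

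All 2202 identifiers matched GENCODE M21 (GRCm38, the same assembly as mm10). Coordinates are 1-based. A host was called from its protein-coding transcripts, and introns were numbered on the principal transcript, or else the longest. Of the 35 genes with a RefSeq entry, 33 had the same hairpin coordinates there.

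CPM used own-strand gene reads. Library scaling came from edgeR 4.0.16 (TMM) and, as an alternative, DESeq2 1.42.0, in R 4.3.3. The exact binomial test covered genes with 10 or more reads in total, with Benjamini-Hochberg adjustment and a threshold of 0.05. It was checked on counts simulated with known answers and known library totals, without variation between cultures. That check covers counting error only and cannot speak for real replicate cultures. No quasi-likelihood fit was made, for lack of a second group. Python 3.11.15, numpy 2.4.6, scipy 1.17.1 and pandas 2.3.3 were used.

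The genes, host groups, marker and comparison lists and tests were chosen with earlier results of these data known. All 37 genes are named. Those at a mean of 100 CPM or more and the pairs are given in full, and the mature arms that RefSeq lists are shown for genes at 1000 CPM or more and, in part, for the pairs. Gm23134, Mir28a, Mir25, Mir92-1, Mir92-2, Mir92b, Mir363, Mir367, Mir7-2, Mir1298 and Gm24083 were named as genes that share sequence, a seed, a host or a locus with a listed gene, some of them after their values were seen. Alternatives were the count that ignores strand, other denominators, thresholds, scalings and pseudocounts, and each library left out.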

Additional observations from a re-analysis of the deposited data

Results flagged for a closer look

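Reads on the strand opposite Mir708 numbered 9 in replicate 1 and 7 in replicate 2, above the cutoff of 3 reads set for such counts. They came to 0.161% and 0.176% of the reads on the gene's own strand. No miRNA gene is annotated on that strand there. Of the 2138 miRNA genes without an annotated miRNA gene opposite, Mir708 and Mir7654 were the 2 with more than 3 opposite-strand reads in both libraries. Mir324 had 4 opposite-strand reads in replicate 1 and 1 in replicate 2. It lies on the strand opposite Acadvl.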

How the results depend on the processing

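Of the summary results, the share of reads taken by the 37 genes moved with its denominator, to 1.92% of all reads and to 6.02% when Mir206 was left out of the denominator, as both constructions require. The log2 ratio of Mir191 to Mir425 reversed to -14.83 in the count that ignores strand, where Mir191 was listed at 0. With each library left out, the count that ignores strand or a threshold of 1 or 5 CPM, detected genes numbered 28 to 30. The binomial test called 26 or 27 genes of the list under 5 alternatives. With a minimum of 1 read it called 31.2% of all genes tested, and with 100 reads 85.4%. In place of 4, 3 genes were 2-fold apart in the count that ignores strand, where Mir872 dropped out. With exons of all isoforms counted, an alternative chosen after the annotation was read, 30 of 37 genes were sense-intronic. Of the 21 genes that averaged at least 100 CPM, 14 moved by less than the replicate SD in the count that ignores strand and 3 with all reads as the denominator. Leaving out a library left 0.465 to 1.53 times the mean, both extremes from Mir335. The test has no form with 1 library. No paired analysis was possible because the series has 1 group. Depth limits genes below about 2 CPM. Reads that mapped to several places can limit the 7 genes of the list that share a stretch of bases with another hairpin. These are Mir128-1, Mir128-2, Mir218-1, Mir218-2, Mir7-1, Mir101b and Mir708. The same limit holds for genes named beside the list, such as Mir92-1 and Mir92-2. Copies outside annotated hairpins were not searched for any gene, so the other genes of the list can be limited too.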
